A study of Mus musculus with 12 samples.

Results

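The genes examined here were the lysosomal cathepsins Ctss, Ctsb, Ctsd, Ctsl, Ctsz, Ctsh, Ctsc, Ctsk and Ctse and the asparaginyl endopeptidase legumain (Lgmn). They were chosen by gene name as proteases of antigen processing, so that 10 of the 41709 genes in the count tables were followed, all of them found. Cathepsins are made as inactive precursors, are carried to endosomes and lysosomes and become active as the compartment acidifies. In antigen-presenting cells they cut ingested proteins into peptides and, step by step, trim the invariant chain (Cd74) that blocks the groove of MHC class II molecules, a path in which cathepsin S makes the last cuts in dendritic cells. Cystatins and stefins are the inhibitors of the cysteine cathepsins.

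RNA-seq was performed on bone marrow-derived dendritic cells (BMDCs), that is, mouse bone marrow cells grown with GM-CSF for 10 days, from which MHCII+ cells were isolated. All mice carried the CD18fl/fl allele, in which loxP sites flank exon 3 of the β2 integrin gene Itgb2 (CD18). The controls had no Cre (fl/fl Cre-, here CD18fl/fl), and the others (fl/fl Cre+, labelled CD18-delta-CD11c, here cKO) also expressed Cre from the CD11c promoter, which acts mainly in CD11c+ cells. The CD18fl/fl line derived from targeted embryonic stem cells, and the age of the mice is not given in the labels. Cells of each genotype were left unstimulated or received LPS, a TLR4 ligand, at 100 ng/mL for 24 h, with 3 libraries in each of the 4 groups. GM-CSF cultures also hold macrophage-like cells, so levels describe the isolated cells as a whole, and fewer cells of a type and less RNA per cell cannot be told apart.

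Each library held 29689149 to 34037178 gene reads, so that 3 reads, taken as the floor of detection, equalled 0.0752 to 0.135 CPM (total gene reads scaled to library size after TMM normalization). Itgb2 checked the labels: its mean was 394 ± 23.0 CPM in CD18fl/fl and 158 ± 34.8 in cKO unstimulated libraries, and 202 ± 56.3 and 108 ± 15.6 CPM after LPS (mean ± SD, n = 3), with no overlap between genotypes in either state. Its log2 fold change in cKO cells was -1.26 ± 0.23 unstimulated and -0.93 ± 0.29 after LPS (edgeR adjusted p = 0.0887 and 0.428), and with the block described next -1.29 ± 0.17 and -0.91 ± 0.16 (adjusted p = 0.00392 and 0.0201). The summed level of the 10 dendritic cell markers was 12800 to 33380 CPM, mostly from H2-Ab1, H2-Aa and Cd74. Cd209a was 24.1 to 119 CPM in unstimulated and 0 to 2.01 CPM in LPS-treated libraries. Flt3 was 0.227 to 2.25 CPM in the libraries numbered 3 and 9.22 to 35.5 CPM in the others. The libraries numbered 3 stood apart in all 4 groups. Their B cell markers summed to 0.636 to 2.54 CPM, against 8.64 to 137.8 CPM in the libraries numbered 1 and 2. On the second principal component (25.5% of the variance) they lay between -93.0 and -44.8 and all others between -1.57 and 74.3. On the first (38.3%) the LPS-treated libraries numbered 3 lay at -12 (CD18fl/fl) and 3.05 (cKO). The other LPS-treated libraries lay there between 84.4 and 94.7 and the unstimulated ones between -92.3 and -33. Same-numbered libraries deviated together from their group means, so each difference is also given from a fit with a replicate block, that is, within same-numbered libraries, wherever this changed a call. The block removes a shift shared by both groups of a comparison, not a difference in LPS response between replicate numbers. Libraries numbered 1 and 2 also deviated together (mean correlation over genes 0.207 to 0.373), so their pairing by number is less clear than for those numbered 3. The 3 deviations in a group sum to 0. Where number 3 lies far out, numbers 1 and 2 therefore deviate together and against it by construction.

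Of the 10 members, 7 had a promoter in the RefSeq promoter table (GRCm38.p6), which did not list Ctsb, Ctsh and Ctse, and Lgmn had an alternative promoter as well. Each of these 8 sequences had 1 exact match on its chromosome in GRCm39, and positions are given in that build. On both strands they were searched for the E-box CACGTG, the core of the CLEAR element bound by the lysosomal regulator TFEB and its relatives, for the core of the interferon-stimulated response element, GAAA and GAAA with a pair of bases of any kind between them, and for GAGGAAGT, a site form of the myeloid factor PU.1. Below are those of Ctss, with the highest mean level per transcript length (TPM) in all 4 groups, Ctsd, with the most matches to a lysosomal element, and Ctsz, called higher after LPS in both genotypes with the block. Each runs 5′ to 3′ over the 250 bases before the RefSeq start and 10 bases from it, with matches in capitals.
Ctss, chr3:95433847-95434106, plus strand: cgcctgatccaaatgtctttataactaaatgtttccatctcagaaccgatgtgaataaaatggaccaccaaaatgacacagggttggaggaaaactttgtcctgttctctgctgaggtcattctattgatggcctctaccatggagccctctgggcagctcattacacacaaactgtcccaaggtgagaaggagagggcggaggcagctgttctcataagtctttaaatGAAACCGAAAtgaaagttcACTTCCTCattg
Ctsd, chr7:141941555-141941814, minus strand: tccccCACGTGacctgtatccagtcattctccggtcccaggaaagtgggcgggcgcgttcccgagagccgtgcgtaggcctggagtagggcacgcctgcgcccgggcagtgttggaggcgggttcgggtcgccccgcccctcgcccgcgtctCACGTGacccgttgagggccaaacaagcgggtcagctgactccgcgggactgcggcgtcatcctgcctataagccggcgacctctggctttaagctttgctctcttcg
Ctsz, chr2:174280823-174281082, minus strand: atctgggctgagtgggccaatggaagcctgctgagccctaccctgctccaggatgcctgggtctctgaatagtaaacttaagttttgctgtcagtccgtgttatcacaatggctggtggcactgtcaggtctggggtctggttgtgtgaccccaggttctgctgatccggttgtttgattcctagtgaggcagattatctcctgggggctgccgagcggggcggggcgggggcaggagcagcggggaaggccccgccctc
Bases are numbered from 1 at the 5′ end. Ctss held the interferon-stimulated core at bases 230 to 239, and GAGGAAGT on the other strand at bases 249 to 256. Ctsd held CACGTG at bases 6 to 11 and 153 to 158. In the promoters not printed, CACGTG lay at bases 15 to 20 of Ctsl and at bases 202 to 207 of the alternative Lgmn promoter, and GAGGAAGT lay on the other strand at bases 100 to 107 of Ctsc. None of these letters was found in the windows of Ctsz and Ctsk or in the first Lgmn promoter. Of 32851 mouse promoters of 300 bases, 7.15% held CACGTG, 3.44% the interferon-stimulated core and 3.20% held GAGGAAGT. The motifs do not overlap each other in these windows, and a match is a description of letters only.

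Per transcript length, the members formed a steep order. In TPM, the deposited level per transcript length, Ctss and Ctsd took the first and second places in the mean of all 4 groups. Ctss, the endoprotease of late invariant chain cleavage, had a mean of 4486 ± 2183 TPM in unstimulated and 4287 ± 1821 TPM in LPS-treated CD18fl/fl cells, and of 3049 ± 1315 and 2623 ± 732 TPM in the cKO groups. Ctsd, the major lysosomal aspartic protease, followed with 3691 ± 332 and 3202 ± 806 TPM in CD18fl/fl and 2203 ± 973 and 1578 ± 357 TPM in cKO cells (SD, n = 3). On TMM-scaled counts the Ctss log2 fold change in cKO cells was -0.002 ± 0.50 unstimulated and -0.36 ± 0.49 after LPS (SE, edgeR adjusted p = 0.998 and 0.863). The libraries of Ctss and Ctsd overlapped in every group. Ctsb, Ctsz and Ctsh shared ranks 3 to 5 with group means between 646 and 1736 TPM, and neighbours among these 3 overlapped in every group. Lgmn, Ctsl, Ctsc and Ctsk came next with means of 48.1 to 402.5 TPM. Ctse was last in every group, with at most 2.25 TPM in any library.

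Together the 10 members made up 1.26 ± 0.235% and 1.27 ± 0.0847% of all TPM in unstimulated and LPS-treated CD18fl/fl cells, against 0.831 ± 0.234% and 0.735 ± 0.0283% in the cKO groups (SD, n = 3). The unstimulated groups overlapped (0.987 to 1.42% and 0.614 to 1.08%). The LPS groups did not (1.18 to 1.34% and 0.712 to 0.766%). TPM is a share of the exon reads of each library, so it moves with whatever else the library holds. The members' composition differed by replicate number. Ctss made up 34.9 to 44.6% of the members' TPM in the libraries numbered 1 and 2 and 18.8 to 27.8% in those numbered 3, while Ctsz made up 4.27 to 9.29% and 14.4 to 25.4%.

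**Figure D1:**
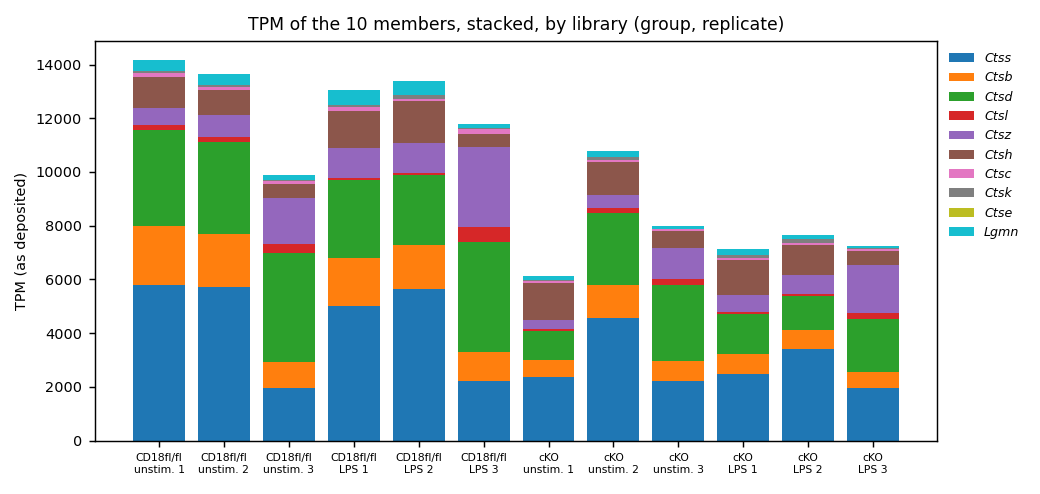
Stacked bars give the deposited TPM of the 10 members in each of the 12 libraries, grouped by genotype and treatment (x axis: group and replicate number, y axis: TPM). Ctss and Ctsd fill most of each bar, the Ctsz part is largest in the libraries numbered 3, and all LPS-treated cKO bars are shorter than all LPS-treated CD18fl/fl bars.

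LPS was compared with no stimulation first within each genotype. Without the block, edgeR's quasi-likelihood test called 1 of the 10 members (adjusted p under 0.05) in CD18fl/fl and 1 in cKO cells, both times Ctse and both times lower, where 3.89% and 3.99% of all genes tested were called (2.06% higher and 1.83% lower in CD18fl/fl, 2.23% and 1.76% in cKO cells). With the replicate block it called 3 members in each genotype, Ctse lower and Ctsz and Ctsk higher, against 12.8% and 20.2% of all genes (6.33% higher and 6.43% lower in CD18fl/fl, 10.2% and 9.93% in cKO cells). Ctse was the 1 member whose LPS-treated and unstimulated groups did not overlap, in both genotypes, against 29.5% and 28.1% of all genes. In CD18fl/fl cells 5 members had the same sign in the 3 same-numbered pairs (Ctss, Ctsz, Ctsc and Ctsk higher, Ctse lower) and in cKO cells 3 (Ctsz and Ctsk higher, Ctse lower), against 54.7% and 57.5% of all genes. The members' median log2 fold change was 0.31 in CD18fl/fl (all genes tested, -0.02) and -0.01 in cKO cells (all genes, -0.01). The genotype comparisons further on share these same libraries.

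Ctse, an endosomal aspartic protease known from epithelia and immune cells, was near the floor after LPS. In CD18fl/fl cells its level was 21.2, 17.5 and 1.82 CPM unstimulated (replicates 1 to 3) and 0.257, 0.484 and 0.153 CPM after LPS. In cKO cells it was 10.1, 10.0 and 5.26 CPM unstimulated and 0.486, 0.180 and 0.162 CPM after LPS. No LPS-treated library reached the lowest unstimulated one, and the unstimulated CD18fl/fl library numbered 3 was the lowest of the unstimulated libraries. The ratio of the means was 45.4 in CD18fl/fl and 30.7 in cKO cells. The log2 fold change of Ctse was -5.52 ± 1.02 (SE, edgeR adjusted p = 0.0375) and, with the block, -5.14 ± 0.59 (adjusted p = 0.00710) in CD18fl/fl cells. For Ctse in cKO cells it was -4.98 ± 0.62 (adjusted p = 0.0167) and, with the block, -5.02 ± 0.49 (adjusted p = 0.00183). Without the block, the Ctse call in CD18fl/fl cells was lost when any library numbered 1 or 2 was left out (adjusted p = 0.129 to 0.159), and in cKO cells when an unstimulated library numbered 1 or 2 (0.0722 and 0.0637) or the LPS-treated library numbered 2 was left out (0.0986).

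Most Ctse reads lay in introns. Of 1529 reads in the 3 unstimulated CD18fl/fl libraries 144 were exonic and 1385 (90.6%) intronic, and 39 crossed an exon junction. In unstimulated cKO cells 136 of 767 reads were exonic and 631 (82.3%) intronic, with 63 across junctions. After LPS the 3 CD18fl/fl libraries held 5 exon reads and the 3 cKO libraries 1, out of 27 and 21 reads. All other members had at most 7.96% intronic reads in any library (Ctsk 2.74 to 7.96%, the rest at most 1.90%). The kit named in the methods does not mark strand, and in GENCODE vM39 the noncoding gene Gm69631 overlaps the last 4025 bases of Ctse on the opposite strand, so reads of the 2 genes cannot be told apart there. The summed level of the 9 macrophage markers was also lower after LPS, from 1917 to 2255 CPM down to 1164 to 1372 CPM in CD18fl/fl and from 1822 to 2377 CPM down to 549 to 935.8 CPM in cKO cells. Among unstimulated libraries it did not always go with Ctse. The cKO library numbered 3 had the highest sum (2377 CPM) and the lowest Ctse level of its group, and the CD18fl/fl library numbered 3 was lowest in both. After LPS Mrc1 was at 0.0372 to 1.55 CPM and no other marker was under 2.84 CPM. Of the 9, 6 were lower after LPS in all 3 pairs of both genotypes (Csf1r, C1qa, C1qb, C1qc, Cd68 and Mrc1), while Adgre1 was higher in all 3 CD18fl/fl pairs and in 2 of 3 cKO pairs, and Fcgr1 and Mertk varied in sign. The part of these markers in the Ctse result was not tested.

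**Figure D2:**
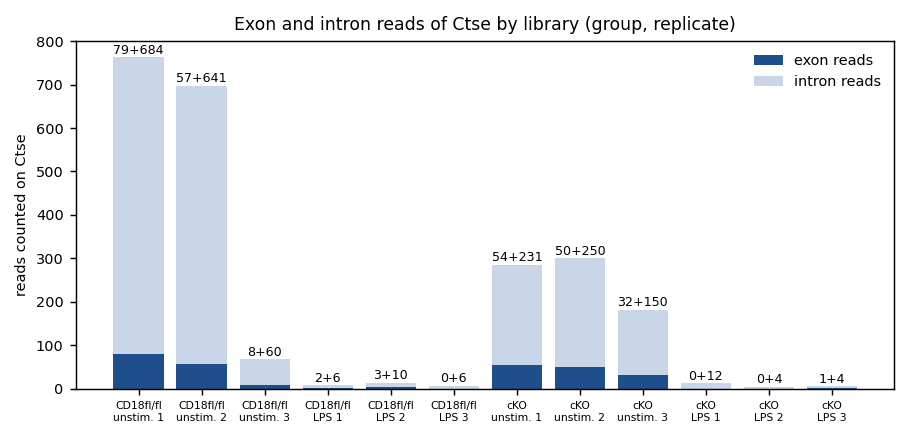
Bars give the reads counted on Ctse in each of the 12 libraries (x axis: group and replicate, y axis: reads), split into exon reads (dark) and intron reads (light), with both numbers printed above. Intron reads make up most of each bar, and the 6 LPS-treated libraries hold 4 to 13 reads each, against 68 to 763 in the unstimulated ones.

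Ctsz (cathepsin Z, a carboxypeptidase of myeloid cells) was, with Ctsk, 1 of the 2 members that were higher after LPS in every same-numbered pair. In CD18fl/fl cells it went from 421.5, 516.9 and 1126 CPM unstimulated to 887, 1012 and 2052 CPM after LPS. In cKO cells it went from 312, 432 and 958 CPM to 705, 817 and 1700 CPM. In both states and genotypes the library numbered 3 was the highest, so the groups overlapped, yet all 6 same-numbered pairs were higher after LPS. Within pairs the log2 difference of Ctsz was 1.07, 0.97 and 0.87 in CD18fl/fl and 1.18, 0.92 and 0.83 in cKO cells. Its log2 fold change in CD18fl/fl cells was 0.95 ± 0.50 (SE, edgeR adjusted p = 0.292) and, with the block, 0.97 ± 0.20 (adjusted p = 0.0296). In cKO cells Ctsz gave 0.89 ± 0.53 (adjusted p = 0.391) and, with the block, 0.93 ± 0.17 (adjusted p = 0.0127). With the block but scaled by library size alone, which moves the median of all genes to -0.36 in CD18fl/fl cells, the Ctsz value there was 0.65 ± 0.16 and no longer called (adjusted p = 0.0571).

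Ctsk, a collagen-degrading cysteine protease best known from osteoclasts, varied most between libraries after Ctse. It was 59.7, 46.6 and 9.43 CPM in unstimulated CD18fl/fl cells and 94.8, 139.5 and 18.6 CPM after LPS. In cKO cells it was 20.8, 112.5 and 13.7 CPM unstimulated and 118.7, 197 and 24.2 CPM after LPS. The libraries numbered 3 were the lowest in all 4 groups, the opposite of Ctsz, and again all 6 same-numbered pairs were higher after LPS. The log2 fold change of Ctsk was 1.13 ± 0.84 (edgeR adjusted p = 0.451) and, with the block, 1.08 ± 0.26 (adjusted p = 0.0446) in CD18fl/fl cells. In cKO cells Ctsk gave 1.12 ± 0.94 (adjusted p = 0.553) and, with the block, 1.32 ± 0.36 (adjusted p = 0.0433). Scaled by library size alone with the block, neither Ctsk value was called (0.76 ± 0.23, adjusted p = 0.0811, and 1.11 ± 0.36, adjusted p = 0.0724). The Ctsk and Ctss genes are neighbours on chromosome 3, with 17423 bases between them, and Ctss was not called in either genotype.

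Ctsl, a cysteine endoprotease that trims the invariant chain in thymic epithelium and macrophages, moved in opposite directions by replicate number. Unstimulated and LPS-treated CD18fl/fl levels were 498, 502 and 931 CPM and 236, 314 and 1646 CPM. In cKO cells it was 340.2, 802.6 and 817.5 CPM unstimulated and 277, 280.1 and 1056 CPM after LPS. Both pairs numbered 3 were higher after LPS and the 4 pairs numbered 1 and 2 were lower. The Ctsl log2 fold change in CD18fl/fl cells was therefore 0.20 ± 0.75 without the block (edgeR adjusted p = 0.901), -0.32 ± 0.40 with it (adjusted p = 0.612), and -0.86 ± 0.18 with the libraries numbered 3 left out (adjusted p = 0.00234, 2 libraries a group, 6140 of 12924 genes called). In cKO cells the same 3 values for Ctsl were -0.30 ± 0.63, -0.52 ± 0.37 and -1.15 ± 0.40 (adjusted p = 0.837, 0.360 and 0.0965). The difference between the replicates in their LPS response was not tested.

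The other 6 members were not called after LPS in either genotype. Ctsh, an aminopeptidase with some endoprotease activity, was 929, 707 and 418 CPM unstimulated and 1379, 1757 and 398 CPM after LPS in CD18fl/fl cells. Lgmn, which cuts after asparagine and processes other cathepsins, was 394.6, 365.9 and 165 CPM unstimulated and 619.5, 648.7 and 146 CPM after LPS in the same cells. For both genes the pairs numbered 1 and 2 were higher after LPS and the pair numbered 3 was lower. Their log2 fold changes in CD18fl/fl cells were 0.78 ± 0.56 for Ctsh and 0.61 ± 0.60 for Lgmn (edgeR adjusted p = 0.433 and 0.569), and without the libraries numbered 3 they were 0.94 ± 0.21 and 0.74 ± 0.17 (adjusted p = 0.00292 and 0.00340). In that last fit 6140 of 12924 genes were called. In cKO cells Ctsh (0.02 ± 0.46) and Lgmn (0.08 ± 0.41) were close to 0 (adjusted p = 0.988 and 0.934).

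Ctss was 3605, 3366 and 1204 CPM in unstimulated and 3779, 4850 and 1429 CPM in LPS-treated CD18fl/fl cells, and 2129, 4031 and 1733 CPM and 2536, 3680 and 1780 CPM in cKO cells. The library numbered 3 was the lowest of each group. Its LPS log2 fold change was 0.30 ± 0.57 in CD18fl/fl and -0.04 ± 0.41 in cKO cells (edgeR adjusted p = 0.785 and 0.965), smaller than the spread between replicates. The values of Ctsb, Ctsd and Ctsc (cathepsin C, or dipeptidyl peptidase I, which activates granule serine proteases) lay between -0.30 and 0.31 in both genotypes, with adjusted p = 0.510 to 0.982.

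**Figure D3:**
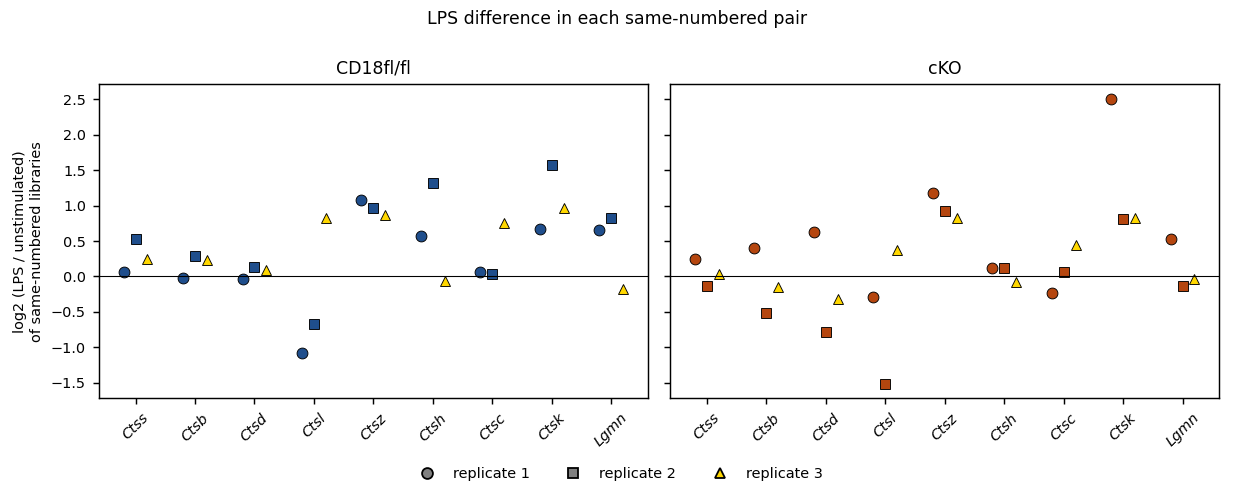
Points give the log2 ratio of normalized CPM (pseudocount 0.1) of the LPS-treated to the unstimulated library with the same replicate number, for 9 members (x axis) in CD18fl/fl (left) and cKO cells (right). Ctsz and Ctsk lie above 0 in all 6 pairs, and for Ctsl the pairs numbered 3 (yellow triangles) lie above 0 and the others below. Ctse, at -5.90 to -2.93, is left out.

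The genotypes were then compared within each state. In unstimulated cells edgeR called 0 of 10 members without the block, where 0% of 12876 genes were called. At an unadjusted p under 0.05 there were 0 members and 2159 genes, and DESeq2 called 0 members and 526 genes. With the replicate block 1 member was called, Ctsh, higher in cKO cells, where 20.2% of all genes were called and 12.1% were called higher. Its level was 929, 707 and 418 CPM in CD18fl/fl and 1598, 1425 and 645 CPM in cKO cells. The groups overlapped because of the cKO library numbered 3, but each cKO library was above its same-numbered partner. The log2 fold change of Ctsh was 0.88 ± 0.43 (SE, edgeR adjusted p = 0.354) and, with the block, 0.86 ± 0.15 (adjusted p = 0.00877). For the other direction, 8.16% of all genes were called lower and 0 members. In the LPS state it was 0.11 ± 0.60 and, with the block, 0.23 ± 0.18 (adjusted p = 0.967 and 0.451).

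Across the other members in unstimulated cells the sign of the genotype difference varied. Ctsb, Ctsz and Lgmn were lower in cKO cells in all 3 same-numbered pairs, and the pairs of Ctss, Ctsd, Ctsl, Ctsc, Ctsk and Ctse differed in sign. In all, 4 of 10 members had the same sign in the 3 pairs, against 57.9% of all genes, and none had groups without overlap, against 24.8%. Lgmn was 394.6, 365.9 and 165 CPM in CD18fl/fl and 221, 291 and 129.7 CPM in cKO cells, a log2 fold change of -0.48 ± 0.43 (edgeR adjusted p = 0.615) and, with the block, -0.45 ± 0.16 (adjusted p = 0.0839). DESeq2 with the block called Lgmn lower (-0.45 ± 0.17, adjusted p = 0.041), where 2998 of 18793 genes were called. With an offset for exon length added to the block, Lgmn (-0.63 ± 0.16, adjusted p = 0.0449) and Ctsz (-0.63 ± 0.15, adjusted p = 0.0349, against -0.25 ± 0.14 with the block alone) were called lower in cKO cells. Without the libraries numbered 3 Ctse was called lower (-0.88 ± 0.22, adjusted p = 0.0492), where 1383 of 13068 genes were called. For Ctsb, Ctsd and Ctsk the pair numbered 1 differed most, with the cKO library lower (2023 against 4775 CPM, 1526 against 3506 CPM and 20.8 against 59.7 CPM). The Ctse value of -0.63 ± 0.79 turned to 0.30 ± 0.86 when only exon reads were counted (adjusted p = 0.737 and 0.887).

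In LPS-treated cells edgeR called 0 of the 9 members tested without the block (Ctse had too few reads), where 0% of 12441 genes were called. At an unadjusted p under 0.05 there were 1 member (Ctsd) and 1212 genes, and DESeq2 called 0 members and 140 genes. With the replicate block 2 members were called, Ctsb and Ctsd, both lower in cKO cells, where 10.1% of all genes were called, 3.16% lower and 6.98% higher. Ctsb, a cysteine protease with both endo- and carboxypeptidase activity, was 4708, 4985 and 2396 CPM in CD18fl/fl and 2673, 2639 and 1803 CPM in cKO cells. Only the CD18fl/fl library numbered 3 overlapped the cKO libraries. The log2 fold change of Ctsb was -0.79 ± 0.36 (SE, edgeR adjusted p = 0.537) and, with the block, -0.74 ± 0.15 (adjusted p = 0.0271). With an offset for exon length added to the block, the Ctsb value was -0.56 ± 0.16 and no longer called (adjusted p = 0.0884), while Ctsz was called lower in cKO cells (-0.57 ± 0.13, adjusted p = 0.0433).

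Ctsd was 3426, 3479 and 4144 CPM in LPS-treated CD18fl/fl and 2360, 2160 and 2790 CPM in LPS-treated cKO cells, with no overlap. Its log2 fold change was -0.62 ± 0.26 (edgeR adjusted p = 0.511) and, with the block, -0.62 ± 0.13 (adjusted p = 0.0263). Without the libraries numbered 3, where no block was fitted, Ctsd gave -0.65 ± 0.19 and was not called (adjusted p = 0.0899). Ctsd and Ctsc were the 2 of 10 members whose LPS groups did not overlap, both lower in cKO cells, and 17.6% of all genes did not overlap. Of the Ctsd reads, 59.8 to 61.4% were counted as unique. The Ctsd gene overlaps the predicted gene Gm49369 (16 to 472 reads a library) by 6757 bases, and the source of the other reads was not tested. Lgmn was 619.5, 648.7 and 146 CPM in CD18fl/fl and 319, 266 and 127 CPM in cKO cells, lower in all 3 pairs. The Lgmn log2 fold change was -1.02 ± 0.59 (adjusted p = 0.639) and, with the block, -0.84 ± 0.22 (adjusted p = 0.0532), and without the libraries numbered 3 Lgmn was called (-1.15 ± 0.20, adjusted p = 0.0272), where 523 of 12390 genes were called. DESeq2 with the block called Lgmn too (-0.81 ± 0.21, adjusted p = 0.00168), where 1866 of 19049 genes were called. So did edgeR with the block on exon reads (adjusted p = 0.044) or with library size scaling (0.0180), but not with the exon length offset (0.0543). In all, 6 members had the same sign in the 3 pairs (Ctsk higher and Ctsb, Ctsd, Ctsz, Ctsc and Lgmn lower), against 49.2% of all genes. The median of the 9 members tested was -0.41 (all genes, -0.11). The summed level of the 9 macrophage markers in LPS-treated cells was 1164 to 1372 CPM in CD18fl/fl and 549 to 935.8 CPM in cKO libraries. Of the 9, Adgre1, Csf1r and Cd68 were lower in cKO cells in all 3 pairs and the other 6 varied in sign. Their part in the result was not tested.

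Whether the LPS response differed between the genotypes was asked with an interaction term over all 12 libraries. No member was called by edgeR or DESeq2, with or without the block (0 of 13752 genes by edgeR, 0%). At an unadjusted p under 0.05 edgeR without the block gave 0 members and 97 genes. The largest interaction among the members was -0.70 ± 0.80 on the log2 scale for Ctsh (edgeR adjusted p = 0.9999), and 8 of the 10 values were below 0.

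**Figure D4:**
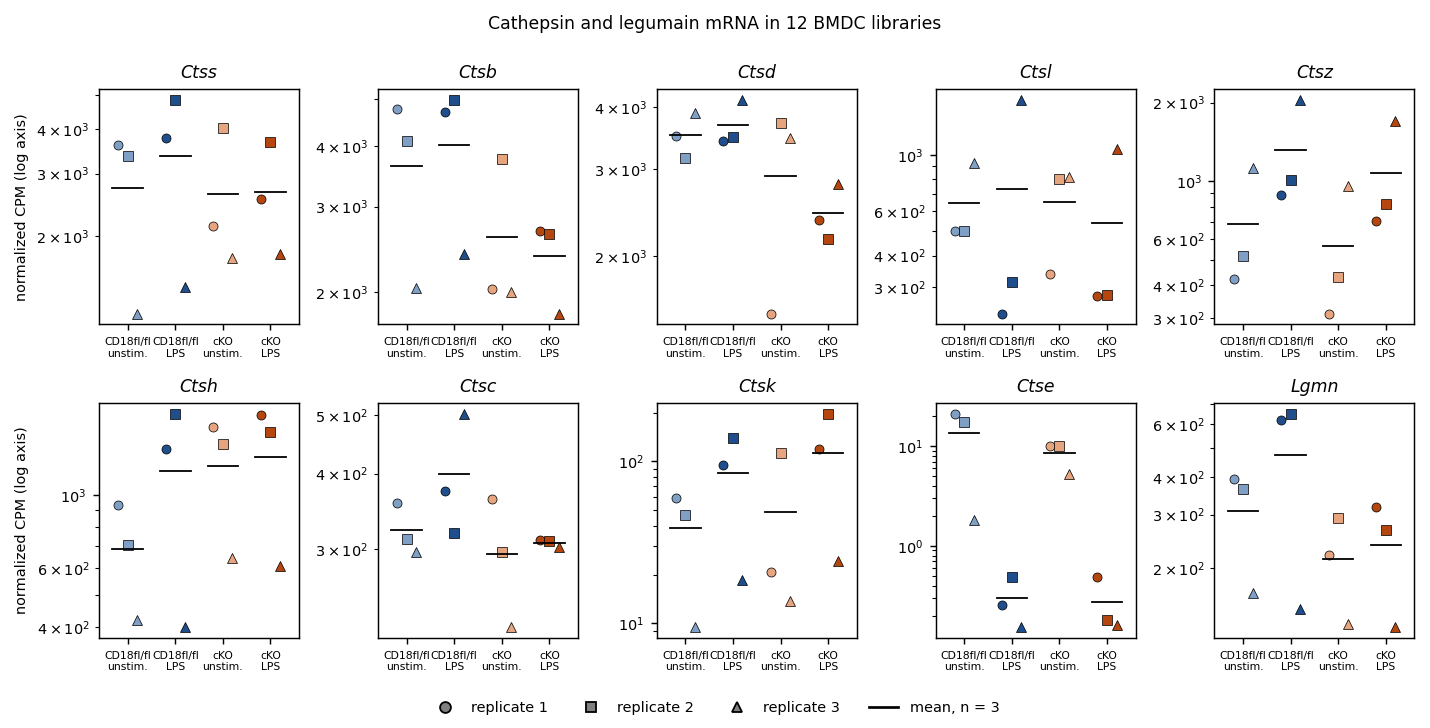
Points give the normalized CPM of each member in each library on log axes, by group (x axis), with shapes for the replicate number and bars for the mean of 3 libraries. The libraries numbered 3 (triangles) are the lowest of every group for Ctss, Ctsh, Ctsk and Lgmn and the highest for Ctsl and Ctsz.

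**Figure D5:**
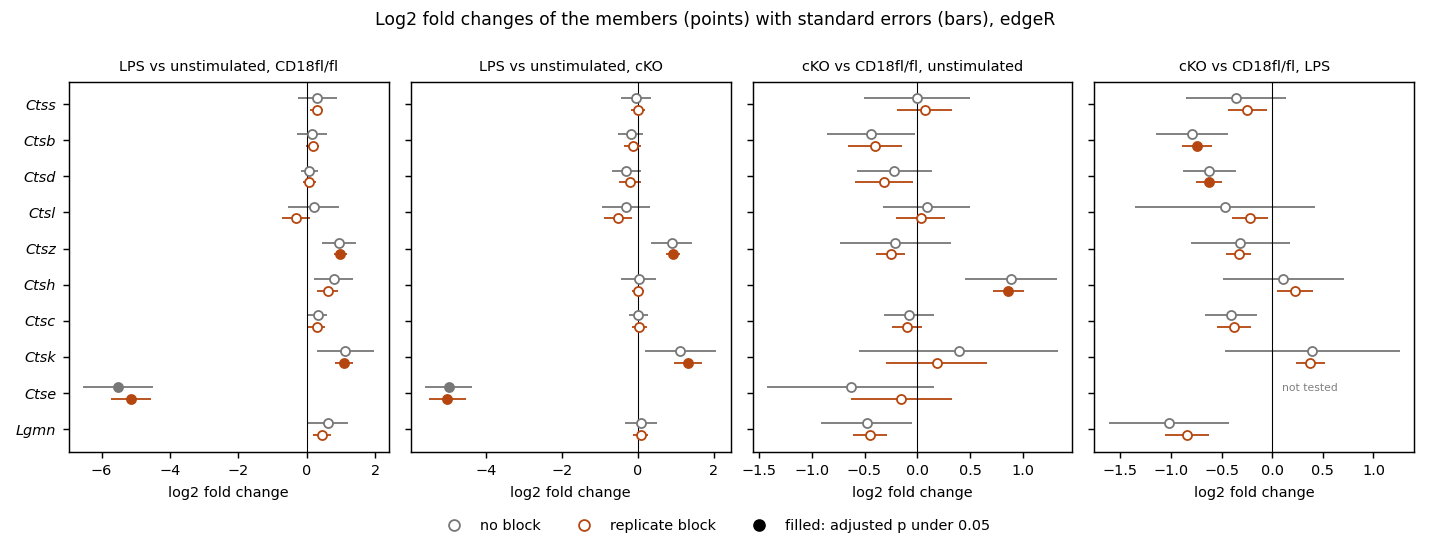
Points give the log2 fold change of each member (rows) in the LPS and genotype comparisons (panels), with bars for 1 standard error, without (grey) and with the replicate block (orange), and filled points are called at an adjusted p under 0.05. Without the block the filled points are those of Ctse after LPS, and the block fills Ctsz and Ctsk after LPS, Ctsh in unstimulated and Ctsb and Ctsd in LPS-treated cKO cells.

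The genes around the members in the antigen-processing path were described from lists of related genes. Of the 11 inhibitor genes (cystatins and stefins) tested, 3 were called higher and 0 lower in unstimulated cKO cells with the block, and 8 were not called. The same numbers held in LPS-treated cKO cells, and 0 were called in either state without the block. Of all genes, 12.1% and 6.98% were called higher. Csta2, a stefin A, had means of 41.1 and 164 CPM in unstimulated CD18fl/fl and cKO cells, a log2 fold change of 2.21 ± 0.20 with the block (edgeR adjusted p = 0.00298), and of 74.8 and 447 CPM after LPS (2.53 ± 0.15, adjusted p = 0.00517). Cstb, stefin B, was higher in unstimulated cKO cells (1.08 ± 0.16, adjusted p = 0.00595), and Cstdc4 was higher in LPS-treated cKO cells (2.02 ± 0.29, adjusted p = 0.0104). After LPS in CD18fl/fl cells Cst3, the secreted cystatin C, was higher (1.19 ± 0.23, adjusted p = 0.0255) and Stfa2l1 lower (-3.94 ± 0.75, adjusted p = 0.0259) with the block. The stefin A genes and their close relatives form a cluster of near-identical copies, so their reads may be split between them. Stfa2l1 had a mean of 4.07 CPM in unstimulated and 0.209 CPM in LPS-treated CD18fl/fl cells, the latter near the floor. The neutrophil markers, summed, were 11.6 to 1316 CPM in unstimulated and 18.9 to 44.3 CPM in LPS-treated CD18fl/fl libraries, and their part in the Stfa2l1 value was not tested.

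Among the 13 MHC class II loading genes, H2-DMa, a chain of the peptide-exchange factor H2-M, fell after LPS in cKO cells (374 to 138 CPM, log2 fold change -1.48 ± 0.27, edgeR adjusted p = 0.0378). It was the only list member called there without the block. With the block H2-DMb2 was lower there too (-0.94 ± 0.21, adjusted p = 0.0214). H2-Ab1, a class II β chain, was higher in unstimulated cKO cells with the block (0.86 ± 0.18, adjusted p = 0.0177). Without the block, 9 of the 13 were higher and 4 lower in unstimulated cKO cells, and 1 was higher and 12 lower in LPS-treated ones. All 13 interaction values were below 0 (median -0.76, all genes 0.02). None of these was called. In CD18fl/fl cells 0 of the 13 were called after LPS with or without the block.

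Of the other lysosomal hydrolases, 35 were tested, and most of those called after LPS were lower. In CD18fl/fl cells 1 was called higher and 3 lower without the block, and 1 and 8 with it, where 1.83% and 6.43% of all genes were called lower. In cKO cells the numbers were 0 and 3, and 1 and 14, where 1.76% and 9.93% of all genes were called lower. Man2b1, lysosomal α-mannosidase, fell in both genotypes, from 240 to 36.9 CPM in CD18fl/fl (log2 fold change -2.69 ± 0.39, edgeR adjusted p = 0.0204) and from 165 to 36.0 CPM in cKO cells (-2.23 ± 0.42, adjusted p = 0.0411). Gusb, β-glucuronidase, fell as well (-2.20 ± 0.36 and -2.13 ± 0.31, adjusted p = 0.0293 and 0.0217). Acp5, tartrate-resistant acid phosphatase, which like Ctsk is best known from osteoclasts, rose in CD18fl/fl cells from 18.8 to 241 CPM (3.69 ± 0.57, adjusted p = 0.0237) and was higher in cKO cells with the block (2.00 ± 0.37, adjusted p = 0.0119). Sgsh, heparan N-sulfatase, was lower after LPS in both genotypes with the block (-3.05 ± 0.59 and -2.71 ± 0.72, adjusted p = 0.0264 and 0.0411). Between genotypes none of the 35 was called without the block. With it 3 were higher and 11 lower in unstimulated and 0 higher and 8 lower in LPS-treated cKO cells, where 8.16% and 3.16% of all genes were called lower. Among them were Cpq (0.77 ± 0.16, adjusted p = 0.0191), Sgsh (-1.08 ± 0.27, adjusted p = 0.0308) and Galns (-1.03 ± 0.21, adjusted p = 0.0161) in unstimulated cells. In LPS-treated cells Ppt2 (-1.31 ± 0.15, adjusted p = 0.00663) and Arsa, arylsulfatase A (-1.05 ± 0.20, adjusted p = 0.0218), had the largest differences.

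Lysosomal membrane proteins and saposins were called in both directions. Of 23 tested, 1 was called without the block, Mcoln2, a cation channel, higher after LPS in cKO cells (1.86 ± 0.31, edgeR adjusted p = 0.0296). With the block 3 were higher and 3 lower after LPS in CD18fl/fl cells and 3 higher and 5 lower in cKO cells, where 6.33% and 6.43%, and 10.2% and 9.93%, of all genes were called higher and lower. With the block Mcoln2 was called in CD18fl/fl cells too (1.94 ± 0.37, adjusted p = 0.0251), Laptm5 was lower in both genotypes (-1.36 ± 0.30 and -1.13 ± 0.18, adjusted p = 0.0382 and 0.00715), and Slc11a1, a metal ion transporter, was higher in cKO cells (1.38 ± 0.30, adjusted p = 0.0216). Npc2, a cholesterol carrier, had a log2 fold change of 1.41 ± 0.29 in CD18fl/fl cells (adjusted p = 0.0321). Gm2a, the GM2 activator, had -1.46 ± 0.26 in CD18fl/fl and -1.96 ± 0.24 in cKO cells (adjusted p = 0.0215 and 0.00351). Between genotypes 1 was higher and 5 lower in unstimulated and 0 higher and 8 lower in LPS-treated cKO cells with the block. Of all genes, 12.1% and 8.16%, and 6.98% and 3.16%, were called higher and lower there. In unstimulated cells Cd63, a tetraspanin, was higher (0.84 ± 0.18, adjusted p = 0.0183), and Slc11a1 (-1.06 ± 0.21, adjusted p = 0.0144) and the cholesterol exporter Npc1 (-0.90 ± 0.14, adjusted p = 0.00634) were lower. In LPS-treated cells Psap, the saposin precursor, was lower (5342 against 2869 CPM, -0.94 ± 0.14, adjusted p = 0.0124), as was Cd68 (-1.13 ± 0.16, adjusted p = 0.0104), which is also on the macrophage list.

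The genes that acidify lysosomes or carry enzymes to them were called between genotypes in both directions and only with the block. Of 18 vacuolar ATPase subunits, 4 were higher and 2 lower in unstimulated and 3 higher and 2 lower in LPS-treated cKO cells, where 12.1% and 8.16%, and 6.98% and 3.16%, of all genes were called higher and lower. In unstimulated cells Atp6v1f (0.98 ± 0.14, edgeR adjusted p = 0.00568) and Atp6v0b (0.89 ± 0.14, adjusted p = 0.00748) were higher, and Atp6v0a1 (-0.78 ± 0.17, adjusted p = 0.0210) and Tcirg1 (-0.76 ± 0.22, adjusted p = 0.0476) lower. In LPS-treated cells Atp6v0d2 (0.78 ± 0.17, adjusted p = 0.0327) and Atp6v1f (0.68 ± 0.17, adjusted p = 0.0471) were higher, and Tcirg1 (-0.89 ± 0.17, adjusted p = 0.0226) and Atp6v0c (-0.69 ± 0.14, adjusted p = 0.0277) lower. Atp6v0a2 was lower after LPS in cKO cells (-0.88 ± 0.20, adjusted p = 0.0241). Of 12 sorting genes, 3 were higher and 3 lower in unstimulated and 1 and 1 in LPS-treated cKO cells. Sort1, the sortilin receptor, was lower (-1.17 ± 0.17 and -0.99 ± 0.23, adjusted p = 0.00505 and 0.0397), and Vps29, a retromer subunit, was higher (1.39 ± 0.14 and 1.31 ± 0.15, adjusted p = 0.00298 and 0.00641). M6pr, the cation-dependent mannose 6-phosphate receptor, was higher after LPS in both genotypes with the block (0.99 ± 0.24 and 0.80 ± 0.18, adjusted p = 0.0495 and 0.0259), and Igf2r, the other such receptor, was lower (-1.44 ± 0.23 and -1.71 ± 0.47, adjusted p = 0.0161 and 0.0440), as was Nagpa (-1.36 ± 0.25 and -1.48 ± 0.21, adjusted p = 0.0230 and 0.00534). M6pr was also higher (0.71 ± 0.16, adjusted p = 0.0210) and Igf2r lower (-0.66 ± 0.15, adjusted p = 0.0228) in unstimulated cKO than CD18fl/fl cells.

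Among 11 lysosomal transcription factors and their regulators, Tfeb (-1.33 ± 0.23) and Tfec (-1.26 ± 0.23) were lower after LPS in cKO cells with the block (edgeR adjusted p = 0.0101 and 0.0109), and 0 of the 11 were called after LPS in CD18fl/fl cells. Between genotypes 0 of the 11 were called without the block. With it Tfe3 (-0.84 ± 0.17, adjusted p = 0.0144) and Fnip2 (-0.93 ± 0.21, adjusted p = 0.0218) were lower in unstimulated cKO cells, and Rraga, a Rag GTPase, was higher in unstimulated (0.66 ± 0.14, adjusted p = 0.0199) and LPS-treated cKO cells (0.69 ± 0.14, adjusted p = 0.0285). Of 15 other cathepsin genes, 4 had enough reads to be tested. Ctsa and Ctso, a carboxypeptidase and a cysteine cathepsin, were lower after LPS in cKO cells with the block (-0.94 ± 0.21 and -1.18 ± 0.23, adjusted p = 0.0230 and 0.0155), and Ctsa was lower in LPS-treated cKO than CD18fl/fl cells (-0.72 ± 0.15, adjusted p = 0.0306).

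The genes most like the members over the 12 libraries, by Pearson's r of log2 CPM among 13742 genes, are given as a description. The 12 libraries share 4 groups and 3 replicate numbers. The most alike gene was Cd163, a macrophage scavenger receptor, for Ctse (r = 0.984, at most 6.41 CPM), Parp8 for Lgmn (0.981), Bcl9l for Ctsz (0.979), Zfp868 for Ctsh (0.974) and Macf1 for Ctsl (0.958). For Ctss it was the phospholipid transfer protein Pltp (0.947), for Ctsk Itm2b (0.947), for Ctsb Plxna2 (0.940, at most 0.527 CPM), for Ctsd the lysosomal membrane protein Cln3 (0.921) and for Ctsc Filip1l (0.887).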

How the data were processed

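BMDC mRNA was measured in 12 libraries, 3 in each of 4 groups taken from the labels. Nothing in the labels says whether replicates came from separate mice, so p-values measure the spread between these libraries. Those of the fits with the replicate block measure the spread of the differences within same-numbered libraries. The methods describe poly(A) libraries of MHCII+ cells, amplified without molecular identifiers and read as 59-base single ends, for which the authors used CLC Genomics Workbench 22.0 at its defaults and the GRCm39 genome. The labels name GRCm38, but the deposited gene coordinates are those of GRCm39. LPS lasted 24 h in the labels and overnight in the methods. The authors deposited raw counts per gene (total gene reads, which include intron reads and reads with several mapping positions, and exon, intron and unique reads) and TPM. The deposited tables hold 41709 genes.

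Total gene reads, the counts that the paper also used, were tested here with edgeR 4.0.16 in R 4.3.3: filterByExpr (minimum count 10), TMM, the quasi-likelihood test, Benjamini-Hochberg adjustment over all genes tested and a threshold of 0.05. The paper's own test was DESeq2, also with an adjusted p cut-off of 0.05. Each 2-group comparison used its 6 libraries and the interaction used 12, and the standard error is the log2 fold change divided by the square root of F. Levels are CPM, computed here from total gene reads and TMM-scaled library sizes, with a pseudocount of 0.1 on the log2 scale. TPM, from the authors' exon reads, served to compare genes and to give the members' share of each library, with no test. DESeq2 1.42.0, other scalings, filters and read columns, a replicate block, an offset for exon length and leaving out libraries were alternatives. The edgeR and DESeq2 fits were tested on simulated counts for the unstimulated genotype comparison and the interaction. The simulated spread between libraries, beside a replicate effect, was smaller than in these data. The other steps were not simulated. Between the most alike of 66 library pairs chi-squared was 42.3 times its degrees of freedom, far above sampling noise. Same-numbered libraries deviated together from their group means (correlation over genes 0.267 to 0.752 in every pair), whereas those numbered 3 deviated against the others (mean -0.560 to -0.429). Libraries numbered 1 also deviated together with those numbered 2 (mean 0.207 to 0.373). For LPS in CD18fl/fl cells this value (0.320) was above that of the pair numbered 2 (0.267). The numbers were taken to pair the libraries, though the values set apart those numbered 3 more clearly than 1 from 2. Deviations from a mean of 3 libraries sum to 0, so these values partly follow from number 3 lying apart. They do not establish the pairing of 1 and 2. What the numbers stand for is not given in the sources used here.

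The members and lists were chosen with earlier results of these data known. All members were named. Of each list, up to 2 genes a direction with the largest change were named among those called after LPS or, with the block, between genotypes, and for each member the gene with the highest r. The floor of 3 reads covers counting error only, whereas SDs and standard errors carry the spread between libraries. The result of 1 list gene is not reported here.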

Additional observations from a re-analysis of the deposited data

How the results depend on the processing

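Without the block, edgeR called 0, 0, 496, 506 and 0 genes (unstimulated genotypes, LPS-treated genotypes, LPS in CD18fl/fl, LPS in cKO, interaction) and 0, 0, 1, 1 and 0 members. With the replicate block, which takes same-numbered libraries as pairs, these were 2606, 1262, 1627, 2560 and 0 genes and 1, 2, 3, 3 and 0 members, with an exon length offset added 1438, 827, 1715, 2675 and 0 genes and 3, 2, 3, 3 and 0 members. DESeq2 called 526, 140, 1795, 1511 and 1 genes, and with the block 2998, 1866, 3104, 3377 and 130 genes and 2, 3, 3, 3 and 0 members. A fit of all 12 libraries called 19, 45, 1068 and 983 genes in the first 4. With no filter on low counts 1 gene was called between LPS-treated genotypes and 805 after LPS in cKO cells. Without the libraries numbered 3 the calls were 1383, 523, 6140, 2049 and 0 genes and 2, 2, 6, 2 and 0 members. Leaving out 1 library at a time gave 0, 0 to 1, 0 to 3268, 0 to 1033 and 0 genes, and 0 to 1 members after LPS in either genotype and 0 in the other comparisons. After LPS, leaving out the treated library numbered 3 gave 3268 genes in CD18fl/fl and 1033 in cKO cells, and leaving out any library numbered 1 or 2 left 0 and 0 to 26 genes.

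The following were chosen after seeing the data. Exon reads called 0 members after LPS in CD18fl/fl cells, where Ctse had too few exon reads to be tested, and with the block 2740, 1413, 1589, 2481 and 0 genes and 1, 3, 2, 3 and 0 members. Library size scaling with the block called 4583, 2642, 1621 and 2748 genes and 4, 5, 1 and 2 members. Library size scaling moved the all-gene median (log2) from -0.05, -0.11, -0.02 and -0.01 to -0.44, -0.37, -0.32 and -0.23, and with the block turned the genes called higher and lower from 1555 and 1051 to 701 and 3882 (unstimulated genotypes), from 869 and 393 to 590 and 2052 (LPS-treated), from 807 and 820 to 476 and 1145 (LPS in CD18fl/fl) and from 1300 and 1260 to 884 and 1864 (LPS in cKO). The causes were not tested. Of 1027 values of single members under the alternatives, 857 kept direction and side of the threshold, 52 became called and 7 lost the call, and 111 changed sign. In 109 of these neither value was called and the one without the block lay within 1 SE of 0, though the alternative could lie further out, as for Ctsl after LPS in CD18fl/fl cells without the treated library numbered 3 (-1.22 ± 0.36, adjusted p = 0.0542). The other 2, in the same comparison, were Ctsl at -0.86 without the libraries numbered 3 and Ctsc at -0.035 with library size scaling and the block. Ctse between LPS-treated genotypes, which had too few reads for the filter, was not called under any of the 9 alternatives that gave a value (-0.47 to 0.13).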
